A study of Mus musculus with 16 samples.

Results

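The microRNAs mmu-miR-99b-5p, mmu-let-7e-5p and mmu-miR-125a-5p, written below without the species prefix, are cut from 3 hairpins that lie close together on mouse chromosome 17 and are known to be made from one primary transcript. They were chosen by that shared origin, not by a measured value, but with earlier results of these data known. They are 3 of the 1978 mature miRNA names in the count files. All 3 passed the filter on low counts and are among the 102 names tested. The data ask whether the 3 go up and down together across parts of the blastocyst and across states of paused development.

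Mouse blastocysts were divided by laser pulses into polar pieces, which hold the inner cell mass, and mural pieces of trophectoderm, and small RNA was sequenced from each. WT blastocysts were taken at embryonic day 4.5 (2 polar and 2 mural libraries), blastocysts in diapause, the natural arrest of the embryo in the mother, at EDG 7.5 (3 polar and 3 mural), and blastocysts paused with an inhibitor of the kinase mTOR, called mTORi, with no day given (3 polar and 3 mural). No strain, genotype or inhibitor name is given in the sources used here, and neither is the number of embryos in a library. For the mural mTORi group the 3 titles carry the word diapaused and leave out the part, so these libraries were placed by their tissue and treatment labels.

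A microRNA guides a silencing complex to messenger RNAs that pair with its seed, the bases 2 to 8 from the 5′ end. Hairpins of one primary transcript are transcribed together, but each is then cut out, loaded and degraded on its own, so the mature levels need not match. The let-7 family is known for rising as cells leave the pluripotent state and differentiate, the miR-99 family is known for targeting the mTOR messenger RNA itself, and miR-125 is the vertebrate relative of lin-4, the worm microRNA that times development.

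The mature sequences are shown because the 3 members have no seed in common, although they come from one transcript. They are taken from RefSeq (GRCm38.p6), 5′ to 3′, with the seed in capitals.
miR-99b-5p: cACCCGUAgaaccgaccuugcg
let-7e-5p: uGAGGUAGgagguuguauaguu
miR-125a-5p: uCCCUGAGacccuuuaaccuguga

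The hairpins lie in the order Mir99b (chr17:17830188-17830257), Mirlet7e (chr17:17830352-17830444) and Mir125a (chr17:17830812-17830879) on the plus strand of GRCm38. Gaps of 94 and 367 bases separate them, and 692 bases span the cluster. All 3 lie inside Spaca6, on its strand, within intron 1 of one of its transcripts (chr17:17827328-17831073). The Mir125a hairpin also overlaps an exon of another Spaca6 transcript, annotated as a processed transcript.

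Each member has relatives with its seed in paralogous clusters elsewhere in the genome. Close ones are shown, of which let-7a-5p alone is 1 misread base away from a member, let-7e-5p.
miR-99a-5p: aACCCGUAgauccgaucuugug
miR-100-5p: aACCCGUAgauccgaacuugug
let-7a-5p: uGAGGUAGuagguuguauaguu
miR-125b-5p: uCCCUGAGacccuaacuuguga

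Counted from the 5′ end, let-7e-5p differs from let-7a-5p by G9U alone, whereas miR-99b-5p differs from miR-99a-5p by C1A, A11U, C16U and C21U. How mismatches were treated in counting is not given in the sources used here. let-7a-5p, let-7c-5p and miR-125b-5p had 0 counts in every library. Of 53 names with 2 or more loci, 43 had no count, and let-7c-5p and miR-125b-5p have 2 loci in the RefSeq table. The table lists let-7a-5p at 1 locus but gives opposite arms from 2 let-7a hairpins, so a count of 0 is read as absence for none of these 3. Of the 13 names of the paralogous clusters, 3 had a count, 60 counts in all, against 2210 for the 3 members. miR-100-5p had 40 of these, 19 of them in mural diapaused replicate 2, and miR-99a-5p had 17, 7 of them in polar mTORi. The opposite arms of the members' own hairpins were also rare, with 15 counts for miR-99b-3p, 6 for miR-125a-3p and 0 for let-7e-3p.

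Counts were few throughout. The 16 libraries held 1744 to 20051 counts, 122251 in all, and the mTORi libraries were among the smallest, with 2184 to 4386 counts. Polar mTORi replicate 3 stood apart, with 25.8% of its counts in miR-203-3p and miR-205-5p, which are known from stratified epithelium. Polar WT replicate 2 held 2.41% erythroid miRNAs. The epiblast markers of the miR-302/367 cluster had 31 counts, all in polar libraries. A mural trophectoderm list held miR-322-5p, miR-322-3p, miR-503-5p and miR-351-5p. It was at 2.55% to 7.16% of counts in mural libraries and at 0.344% to 1.92% in polar ones. That list was chosen for this series with earlier results of these data known, so its difference between parts is no test of the pieces. Nothing says that libraries of a group came from separate embryos, so p-values measure the spread between these libraries only. In such bulk samples fewer cells of a type and less RNA per cell cannot be told apart.

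miR-125a-5p had the most counts of the cluster, 1232 in all or 55.7% of the summed counts, followed by miR-99b-5p with 638 (28.9%) and let-7e-5p with 340 (15.4%). They ranked 20, 37 and 55 by counts among all names. Together they made up 3.05% and 2.96% of the 2 mural WT libraries, 1.01% to 2.56% of the mural diapaused and 0.886% to 1.20% of the mural mTORi ones. In polar pieces they made up 1.48% and 1.89% in WT, 1.58% to 2.83% in diapause and 0.971% to 1.73% under mTORi. The summed share was thus highest in both mural WT libraries, above all the other libraries. Levels below are CPM, counts scaled to 1000000 per library after TMM factors, and a share between members also carries how well each sequence ligates, so it is compared between libraries only. Whether libraries of groups overlapped is given below as a description. The share of all tested names without overlap was not counted, so it is no test result.

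miR-99b-5p stood at 10905 and 10285 CPM in mural WT (70 and 86 counts). It was at 3816, 3247 and 8212 CPM in mural diapaused libraries (38, 53 and 98 counts) and at 2864, 1098 and 3288 CPM in mural mTORi ones (12, 4 and 10 counts). Every mural WT library was above every other library of the study. Polar pieces had 3114 and 4942 CPM in WT (6 and 24 counts), 6061, 4657 and 7653 CPM in diapause (91, 46 and 81 counts), and 3577, 3383 and 356 CPM under mTORi (10, 8 and 1 counts). The lowest value was the 1 count in polar mTORi replicate 3, the library rich in epithelial miRNAs, where it made up 0.0286% of counts (exact 95% binomial interval 0.00072% to 0.159%). By group means the order was mural WT (10595 ± 438 CPM, SD, n = 2), polar diapaused (6124 ± 1499, n = 3), mural diapaused (5092 ± 2717, n = 3), polar WT (4028 ± 1292, n = 2), polar mTORi (2439 ± 1806, n = 3) and mural mTORi (2417 ± 1162, n = 3). Of the neighbours in this order, mural WT and polar diapaused did not overlap, and the others did.

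let-7e-5p stood at 4985 and 4544 CPM in mural WT (32 and 38 counts). It was at 3415, 2267 and 4944 CPM in mural diapaused libraries and at 2148, 1098 and 1973 CPM in mural mTORi ones, the latter from 9, 4 and 6 counts. The mural mTORi libraries were below every other mural library. Polar pieces had 2595 and 3706 CPM in WT (5 and 18 counts), 1998, 2430 and 3307 CPM in diapause (30, 24 and 35 counts), and 1073, 423 and 1781 CPM under mTORi (3, 1 and 5 counts). All polar mTORi values were below all other polar values, although they rest on 9 counts in all. The group means ran from 4765 ± 312 CPM in mural WT (SD, n = 2) down through mural diapaused, polar WT, polar diapaused and mural mTORi to 1092 ± 679 CPM in polar mTORi (n = 3), and each neighbour in this order overlapped the next.

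miR-125a-5p stood at 14644 and 14829 CPM in mural WT (94 and 124 counts). It was at 10244, 6923 and 18603 CPM in mural diapaused libraries (102, 113 and 222 counts) and at 4774, 6588 and 8549 CPM in mural mTORi ones (20, 24 and 26 counts). The mural mTORi values were below both WT values, while those of diapause lay on both sides of them. Polar pieces had 11418 and 6383 CPM in WT (22 and 31 counts), 9459, 8100 and 13227 CPM in diapause (142, 80 and 140 counts), and 14307, 10151 and 9975 CPM under mTORi (40, 24 and 28 counts). Unlike those of let-7e-5p, its polar mTORi values overlapped both other polar groups. The group means ran from 14736 ± 131 CPM in mural WT (SD, n = 2) through mural diapaused, polar mTORi, polar diapaused and polar WT to 6637 ± 1888 CPM in mural mTORi (n = 3), and each neighbour overlapped the next.

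**Figure D1:**
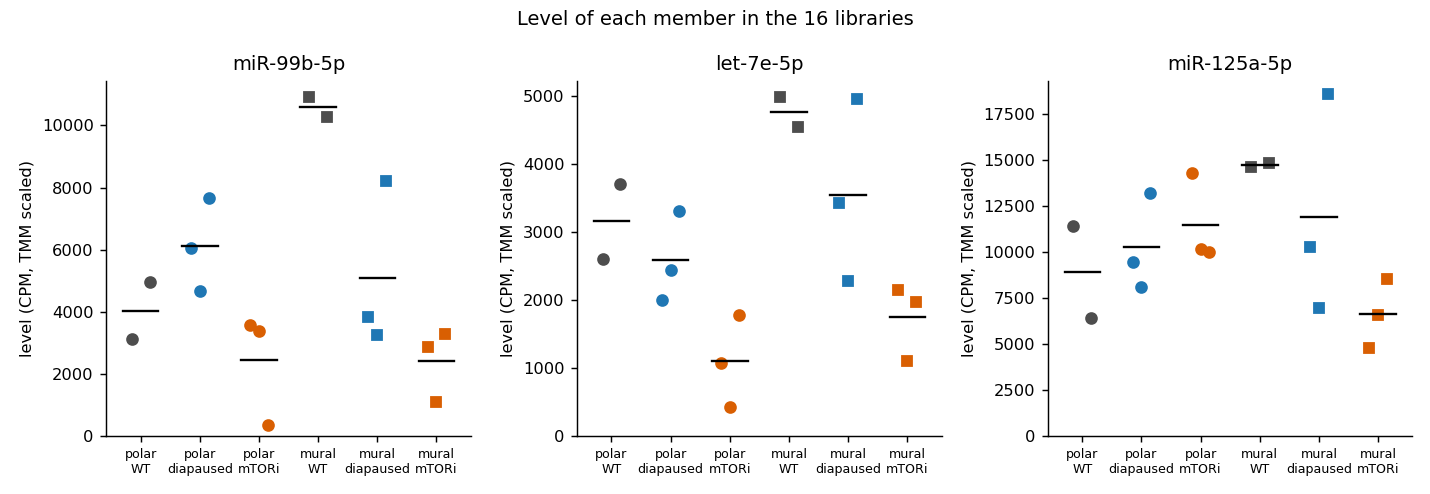
Level of miR-99b-5p, let-7e-5p and miR-125a-5p in CPM (vertical axis, from 0) in the 6 groups of libraries. Circles are polar and squares mural libraries, and lines are group means. Mural WT is highest by mean in each panel, and polar mTORi lies lowest for let-7e-5p but in the middle for miR-125a-5p.

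Under mTOR inhibition, miR-99b-5p and let-7e-5p were lower than in WT, and miR-125a-5p did not pass the test. Averaged over both parts, let-7e-5p fell by 1.48 on the log2 scale (SE 0.39, edgeR adjusted p = 0.0112) and miR-99b-5p fell by 1.46 (SE 0.45, edgeR adjusted p = 0.0256). miR-125a-5p differed by -0.38 (SE 0.31, edgeR adjusted p = 0.358, 95% interval -1.04 to 0.28). So 2 of the 3 members were called, that is, had an adjusted p under 0.05, against 32.4% of all tested miRNAs. The median difference was -1.46 over the members and -0.01 over all tested miRNAs. The let-7e-5p values of mTORi and WT libraries did not overlap in either part, and those of miR-99b-5p overlapped in the polar part.

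In the mural part the log2 difference between mTORi and WT was -2.13 for miR-99b-5p (SE 0.60, edgeR adjusted p = 0.0254), -1.44 for let-7e-5p (SE 0.51, edgeR adjusted p = 0.081) and -1.16 for miR-125a-5p (SE 0.43, edgeR adjusted p = 0.0894). All 3 pointed down and the libraries of the groups did not overlap for any of them, but miR-99b-5p alone was called, 1 of 3 beside 11.8% of all tested miRNAs. With DESeq2 all 3 were called, among 14 of the 101 names it tested. The call of miR-99b-5p was lost without any 1 of the 5 libraries, at log2 differences of -2.24 to -1.68 and edgeR adjusted p of 0.0642 to 0.13. The summed mural trophectoderm list also fell, from 6.73% and 7.16% of counts in WT to 2.55% to 3.15% under mTORi. Of its names, miR-503-5p went from 413 to 29 counts and miR-351-5p from 250 to 19. By contrast, miR-322-5p (290 and 225 counts) and miR-322-3p (71 and 51) changed little relative to the group totals of 14801 and 11489. Library totals went from 6435 and 8366 to 3490 to 4386. The part of the list or of depth in the members' differences was not tested.

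In the polar part the log2 difference was -1.52 for let-7e-5p (SE 0.60, edgeR adjusted p = 0.0724; -1.73 with library size alone, edgeR adjusted p = 0.043), -0.78 for miR-99b-5p (SE 0.68, edgeR adjusted p = 0.421) and 0.41 for miR-125a-5p (SE 0.46, edgeR adjusted p = 0.551, 95% interval -0.56 to 1.37). In the main fit, with TMM factors and no term for replicate number, edgeR called none of the 3, beside 22.5% of all tested miRNAs. DESeq2 called none of the 3, beside 32 of the 101 names it tested. With each tool 1 of 3 was under an unadjusted p of 0.05. So were 43 of 102 names by edgeR and 39 of 101 by DESeq2. With the epithelial-rich polar mTORi replicate 3 left out, the polar difference of miR-99b-5p was -0.03, that of let-7e-5p -1.82 and that of miR-125a-5p 0.76. Averaged over the parts without that library, let-7e-5p was still called (-1.56, edgeR adjusted p = 0.0115) and miR-99b-5p was not (-1.01, edgeR adjusted p = 0.0517). Both averaged calls were also lost without polar WT replicate 2 (-1.26 and -1.31 for miR-99b-5p and let-7e-5p, edgeR adjusted p = 0.11 and 0.0844), the library with erythroid miRNAs, and without mural mTORi replicate 2 (-1.10 and -1.15, edgeR adjusted p = 0.0782 and 0.0519). Without mural WT replicate 1 or mural mTORi replicate 3 the call of let-7e-5p alone was left.

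Whether the mTORi difference itself differed between the parts was tested as an interaction, the polar minus the mural difference. It was 1.56 for miR-125a-5p (SE 0.63, unadjusted p = 0.0238, edgeR adjusted p = 0.27), 1.35 for miR-99b-5p (SE 0.92, edgeR adjusted p = 0.565) and -0.08 for let-7e-5p (SE 0.76, edgeR adjusted p = 1). None of the 3 was called, and neither was any of the 102 names (0% by edgeR, with 14 under an unadjusted p of 0.05; DESeq2 called 1, which was no member). The opposite signs of miR-125a-5p in the 2 parts are therefore not shown to differ.

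**Figure D2:**
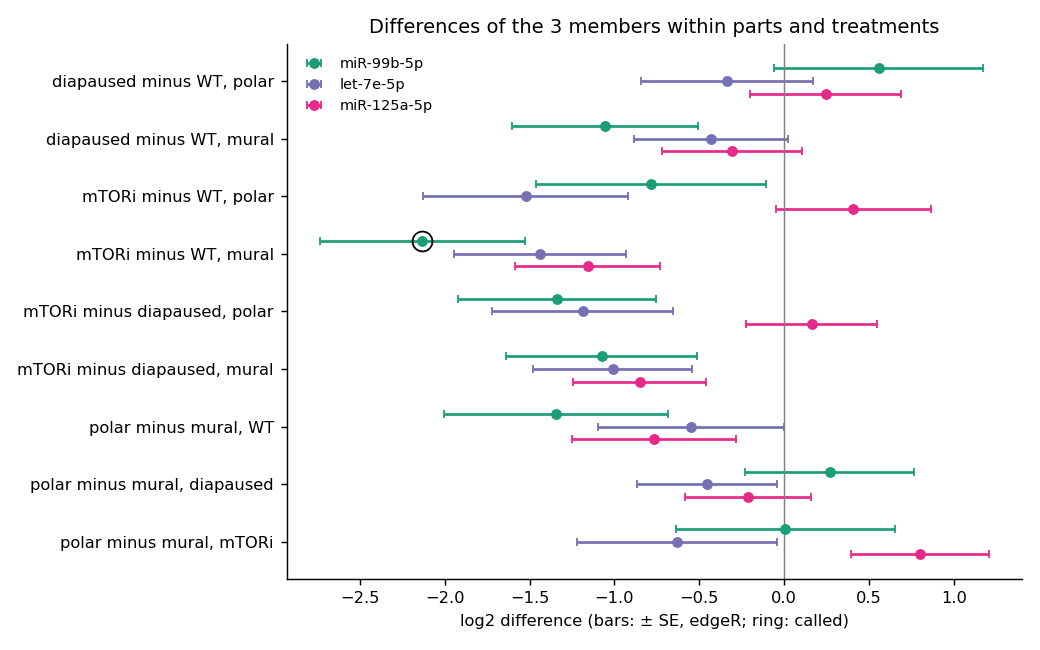
Log2 difference of each member (points) with its SE (bars) for 9 comparisons within a part or a treatment, from 1 edgeR fit. The ring marks the call, miR-99b-5p for mTORi minus WT in the mural part. All 3 members lie below 0 in the mural comparisons between treatments, while in the polar ones miR-125a-5p lies above 0 (for mTORi minus diapaused it turned to -0.10 with library size alone) and let-7e-5p below it.

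Diapause gave no call for any member. This comparison uses the same WT libraries as the one of mTORi with WT, so the values are set side by side only. Averaged over the parts the log2 differences from WT were -0.25 for miR-99b-5p (SE 0.41), -0.38 for let-7e-5p (SE 0.34) and -0.03 for miR-125a-5p (SE 0.30), with edgeR adjusted p of 0.746, 0.54 and 0.975, and 0 of 3 were called beside 18.6% of all tested miRNAs. The 95% intervals, -1.12 to 0.62, -1.10 to 0.33 and -0.67 to 0.61, are wide and do not show the levels to be equal.

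In the mural part miR-99b-5p was at -1.06 from WT to diapause (SE 0.55, edgeR adjusted p = 0.302) with no overlap between groups, let-7e-5p at -0.43 (SE 0.45) and miR-125a-5p at -0.31 (SE 0.41). In the polar part they were at 0.56 (SE 0.61), -0.34 (SE 0.51) and 0.24 (SE 0.44). None of the members was called in either part, none was under an unadjusted p of 0.05 by edgeR, and DESeq2 called none, with 1 under an unadjusted p of 0.05 in the mural part. The edgeR calls among all tested miRNAs were 9.8% in the mural and 7.84% in the polar part. Under an unadjusted p of 0.05 by edgeR were 21 and 26 of 102 names. DESeq2 called 7 and 15 of 101 names, with 21 under an unadjusted p of 0.05 in the mural part. The interaction was 1.61 for miR-99b-5p (SE 0.83, edgeR adjusted p = 0.447), 0.55 for miR-125a-5p and 0.09 for let-7e-5p, none of them called, as was none of the 102 names (0% by edgeR, with 12 under an unadjusted p of 0.05; DESeq2 called 0). The directions of let-7e-5p and miR-125a-5p in the polar part turned without polar WT replicate 2 (0.02 and -0.11).

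The 2 paused states were also compared with each other. This used the same fit, in which the WT libraries enter the filter, the TMM factors and the dispersion. Averaged over the parts, miR-99b-5p was lower under mTORi than in diapause by -1.21 on the log2 scale (SE 0.40, edgeR adjusted p = 0.0323) and let-7e-5p by -1.10 (SE 0.35, edgeR adjusted p = 0.0261). miR-125a-5p differed by -0.34 (SE 0.27, edgeR adjusted p = 0.381, 95% interval -0.92 to 0.24). Thus the same 2 of 3 members were called as against WT, beside 29.4% of all tested miRNAs, whose median difference was -0.27. Both comparisons use the same mTORi libraries, so the second is no independent repeat of the first. The calls rest on few libraries: none remained without mural mTORi replicate 1, 2 or 3, polar diapaused replicate 3 or mural diapaused replicate 3, with edgeR adjusted p of up to 0.191 for miR-99b-5p and 0.21 for let-7e-5p. A single call of the 2 was lost without polar diapaused replicate 1, polar mTORi replicate 2 or 3, or mural diapaused replicate 1. The call of let-7e-5p was also lost with RLE factors (edgeR adjusted p = 0.0555), with no filter on low counts (edgeR adjusted p = 0.132) and with DESeq2 (adjusted p = 0.0511). With only the mTORi and diapaused libraries in the fit both calls were lost (edgeR adjusted p = 0.053 for miR-99b-5p and 0.0547 for let-7e-5p).

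Within the polar part the log2 differences between mTORi and diapause were -1.34 for miR-99b-5p (SE 0.58, edgeR adjusted p = 0.12), -1.19 for let-7e-5p (SE 0.53, edgeR adjusted p = 0.13) and 0.16 for miR-125a-5p (SE 0.39, edgeR adjusted p = 0.813; -0.10 with library size alone). Libraries did not overlap for the first 2. Without the epithelial-rich polar mTORi replicate 3 the value of miR-99b-5p was -0.54. Within the mural part all 3 pointed down, by -1.08, -1.01 and -0.85 (SE 0.56, 0.47 and 0.39), and only the libraries of let-7e-5p did not overlap. None was called in either part by edgeR or DESeq2. DESeq2 called 21 of 101 names in the polar and 5 of 101 in the mural part. By edgeR 2 of 3 were under an unadjusted p of 0.05 in each part. So were 32 of 102 names in the polar and 26 of 102 in the mural part. All tested miRNAs were called by edgeR at 15.7% in the polar and 0.98% in the mural part, where their median difference was -0.41.

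Between parts, all 3 members had lower levels in polar than in mural pieces of WT blastocysts. The 2 polar and 2 mural libraries did not overlap for any member. So few libraries separate easily, and the share of all tested names that did so was not counted. The log2 differences were -1.34 for miR-99b-5p (SE 0.66, edgeR adjusted p = 0.204), -0.55 for let-7e-5p (SE 0.55, edgeR adjusted p = 0.608) and -0.76 for miR-125a-5p (SE 0.48, edgeR adjusted p = 0.368), so none was called, beside 10.8% of all tested miRNAs. In diapause the values were 0.27, -0.46 and -0.21 (SE 0.50, 0.41 and 0.37) with overlap for each, beside 18.6% called, and those of let-7e-5p and miR-125a-5p turned to 0.03 and 0.27 with library size alone. Under mTORi they were 0.01, -0.63 and 0.80 (SE 0.65, 0.59 and 0.41), and miR-125a-5p was higher in every polar library than in every mural one (edgeR adjusted p = 0.269), beside 4.9% called. Averaged over the treatments they were -0.36, -0.55 and -0.06 (SE 0.35, 0.30 and 0.24), beside 27.5% called. By edgeR 0 of 3 members were called in any of these 4 comparisons and 0 of 3 were under an unadjusted p of 0.05, and DESeq2 called 0 of 3 in each, with 1 under an unadjusted p of 0.05 in WT and 1 under mTORi. By edgeR 27, 31, 19 and 35 of all 102 names were under that p in WT, diapause, mTORi and the average. DESeq2 called 20, 30, 10 and 28 of 101 names, with 28 under that p in WT and 24 under mTORi. Not given is whether polar and mural libraries came from the same blastocysts, and the fit treats them as unpaired. The average of miR-125a-5p turned to 0.01 with RLE factors and to 0.14 with library size alone.

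Across the 8 mural libraries the levels of the 3 members were correlated with each other. Over log2 CPM, Pearson's r was 0.96 for miR-99b-5p and let-7e-5p (exact permutation p = 0.000546, adjusted over 9 relations 0.00491; Spearman's rho 0.90, adjusted 0.0205). It was 0.83 for miR-99b-5p and miR-125a-5p (exact permutation p = 0.0101, adjusted 0.032; rho 0.88, adjusted 0.0217) and 0.85 for let-7e-5p and miR-125a-5p (exact permutation p = 0.0107, adjusted 0.032; rho 0.81, adjusted 0.0392). Without the 2 libraries farthest from the median, mural WT replicate 1 and mural mTORi replicate 2, r was 0.91, 0.89 and 0.90 over 6 libraries. Leaving out each library in turn kept r of the first pair at 0.93 to 0.99, past the threshold in 8 of 8, and that of the pairs with miR-125a-5p at 0.80 to 0.90 and 0.81 to 0.92. The latter 2 passed only without mural mTORi replicate 1 or 2, with adjusted exact permutation p of up to 0.0866 and 0.0887. The points share their treatments, and WT and mTORi libraries take the ends of the range. How high r runs between other tested names over these 8 libraries was not computed, so these values have no background. For deviations from the group means, a description with few degrees of freedom, r was 0.94, 0.59 and 0.59. None of these passed when permuted within groups (adjusted exact permutation p = 0.375, 0.668 and 0.668). The first had an unadjusted exact permutation p of 0.0417. Groups of 2 and 3 libraries allow so few pairings that a lone pair could not pass the adjustment over 9 relations.

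Across the 8 polar libraries no pair passed the test. Pearson's r was 0.24 for miR-99b-5p and let-7e-5p, -0.02 for miR-99b-5p and miR-125a-5p and -0.32 for let-7e-5p and miR-125a-5p, with adjusted exact permutation p of 0.582, 0.966 and 0.563 and rho of 0.50, -0.14 and -0.33 (adjusted 0.278, 0.752 and 0.481). Without the 2 libraries farthest from the median r was 0.46, -0.60 and -0.19. Without polar mTORi replicate 3, whose 1 count of miR-99b-5p lies far from the rest, r was 0.56, -0.09 and -0.32. For deviations from the group means every sign turned, with r of -0.56, 0.24 and 0.02, and with library size alone r of miR-99b-5p and miR-125a-5p was 0.35. The polar WT and mTORi libraries hold 33 to 73 counts of the cluster each, against 150 to 263 in polar diapaused ones, so counting error weighs on these values. Whether r differed between the parts was not tested.

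Over all 16 libraries r was 0.57 for miR-99b-5p and let-7e-5p (permutation p = 0.023, adjusted 0.0517; rho 0.71, adjusted 0.0205), 0.48 for miR-99b-5p and miR-125a-5p (permutation p = 0.0614, adjusted 0.11; rho 0.60, adjusted 0.0372) and 0.32 for let-7e-5p and miR-125a-5p (permutation p = 0.226, adjusted 0.338; rho 0.41, adjusted 0.181). By r no pair passed the adjustment, whereas by rank both pairs with miR-99b-5p did. Without the 2 farthest libraries r was 0.65, 0.64 and 0.37 over 14. With polar mTORi replicate 3 alone left out it was 0.68 and 0.66 for the pairs with miR-99b-5p, which then passed (adjusted permutation p = 0.0192 for each). The pair of miR-99b-5p and let-7e-5p also passed without polar diapaused replicate 1 (0.59) or polar mTORi replicate 2 (0.71). With library size alone r of the pairs with miR-99b-5p was 0.61 and 0.57, and both passed (adjusted permutation p = 0.0295 and 0.0308). For deviations from the group means r was -0.06, 0.38 and 0.30, and none passed when permuted within groups (adjusted permutation p = 0.944, 0.668 and 0.668). Members' levels also went with depth, with r of 0.46, 0.54 and 0.11 between log2 CPM and log2 library total for miR-99b-5p, let-7e-5p and miR-125a-5p, whose part was not tested.

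**Figure D3:**
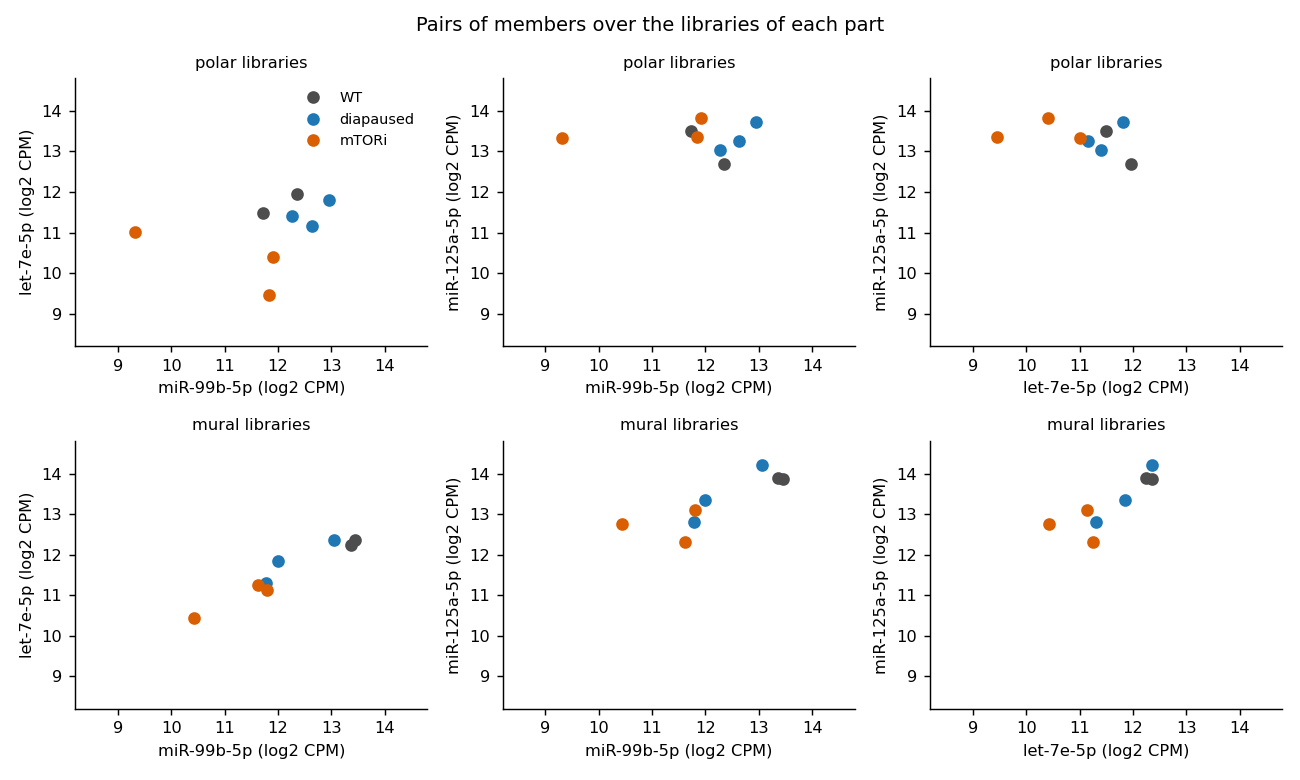
Pairs of members as log2 CPM on both axes, in the 8 polar libraries (top) and the 8 mural libraries (bottom), coloured by treatment. The mural points lie along a rising line (r of 0.96, 0.83 and 0.85), and the polar ones scatter (r of 0.24, -0.02 and -0.32).

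As a description, the miRNAs most like each member over the 16 libraries were ranked by r of log2 CPM among the other 101 tested names. For miR-99b-5p they were miR-466f-3p (0.82), miR-291a-5p (0.72) and miR-5099 (0.72), with let-7e-5p at rank 10 and miR-125a-5p at rank 21. For let-7e-5p they were miR-744-5p (0.76), miR-298-5p (0.73) and miR-503-5p (0.70), with miR-99b-5p at rank 9 and miR-125a-5p at rank 32. For miR-125a-5p the first was miR-99b-5p itself (0.48), then miR-669c-5p (0.46) and miR-295-5p (0.39), with let-7e-5p at rank 9. Over all 5151 pairs of tested names the median r was 0.02 and the 90th percentile 0.50. Of these pairs, 93.4% had a lower r than miR-99b-5p and let-7e-5p. The percentages were 88.3% for miR-99b-5p and miR-125a-5p and 77.9% for let-7e-5p and miR-125a-5p.

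The share of each member in their summed counts needs no scaling between libraries and would stay constant if the 3 moved together. miR-125a-5p made up 66.7% and 42.5% of the sum in polar WT pieces, 54.0%, 53.3% and 54.7% in those in diapause, and 75.5%, 72.7% and 82.4% in those under mTORi. Every polar mTORi library was above every other polar one. In mural pieces it made up 48.0% and 50.0% in WT, 58.6%, 55.7% and 58.6% in diapause, and 48.8%, 75% and 61.9% under mTORi, where the groups overlapped. Exact 95% binomial intervals were wide at these counts, 61.7% to 86.2% for polar mTORi replicate 1 with 53 counts of the cluster, and 40.8% to 55.2% for mural WT replicate 1 with 196.

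Averaged over the parts the share of miR-125a-5p was 17.6 percentage points higher under mTORi than in WT (22.3 in polar and 12.9 in mural pieces; two-sided exact permutation p = 0.04, adjusted over 12 tests 0.2). It was 13.6 points higher than in diapause (exact permutation p = 0.035, adjusted 0.2). The share of miR-99b-5p differed by -11.8 points from WT to mTORi (exact permutation p = 0.09, adjusted 0.27) and by -9.85 points from diapause to mTORi (exact permutation p = 0.05, adjusted 0.2), and that of let-7e-5p by -5.84 and -3.71 points (exact permutation p = 0.16, adjusted 0.32 for each). From WT to diapause the shares differed by 4.04, -1.91 and -2.13 points for miR-125a-5p, miR-99b-5p and let-7e-5p, and from mural to polar by 5.64, -2.83 and -2.82 points. None of the 12 differences passed the adjustment, and the smallest p these designs allow is 0.01 against WT.

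**Figure D4:**
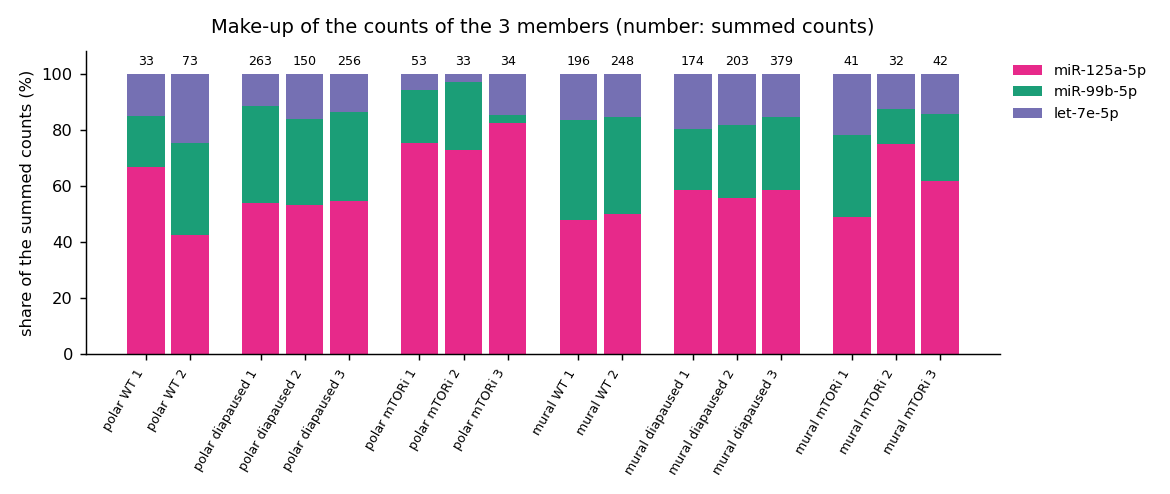
Share of miR-125a-5p, miR-99b-5p and let-7e-5p in their summed counts (percent, vertical axis from 0) for each of the 16 libraries, with the summed counts above the bars. The share of miR-125a-5p is 72.7% to 82.4% in the polar mTORi libraries and 42.5% to 66.7% in the other polar ones.

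The relatives of let-7e-5p were examined in the same libraries. Of the 8 other names of the let-7 seed family, let-7b-5p, let-7d-5p, let-7g-5p and let-7i-5p were tested, and their sequences are shown because they share the seed but not base 9.
let-7b-5p: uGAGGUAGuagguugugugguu
let-7d-5p: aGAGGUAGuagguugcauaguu
let-7g-5p: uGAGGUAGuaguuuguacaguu
let-7i-5p: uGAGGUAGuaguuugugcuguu

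In diapause against WT, averaged over the parts, let-7d-5p rose by 2.58 on the log2 scale (SE 0.47, edgeR adjusted p = 0.000685). let-7g-5p rose by 1.24 (SE 0.31, edgeR adjusted p = 0.00922) and let-7i-5p by 1.81 (SE 0.62, edgeR adjusted p = 0.0487). In the same average let-7b-5p was at 0.48 (SE 0.52, not called), and let-7e-5p at -0.38 as given above. edgeR called 18.6% of all tested miRNAs in it. WT counts were few, 0, 6, 4 and 3 for let-7d-5p and 2, 2, 3 and 2 for let-7i-5p. Within a part only let-7d-5p was called, in mural pieces (edgeR adjusted p = 0.00819, against 0.0511 in polar ones). For polar and mural pieces edgeR adjusted p was 0.134 and 0.0509 for let-7g-5p, and 0.281 and 0.138 for let-7i-5p. Under mTORi against WT, averaged over the parts, none of these 4 relatives was called by edgeR, beside 32.4% of all tested miRNAs. The nearest was let-7b-5p (edgeR adjusted p = 0.0547). The differences of the 4 ran from 0.62 to 1.39. All were above 0, whereas let-7e-5p fell. The highest, of let-7b-5p, includes 34555 CPM in polar mTORi replicate 3, against 6438 and 5921 CPM in replicates 1 and 2. Under mTORi against diapause, averaged over the parts, let-7d-5p was at -1.41 (SE 0.39, edgeR adjusted p = 0.0106), against -1.10 for let-7e-5p. It alone of the 4 was called, beside 29.4% of all tested miRNAs. In polar pieces let-7d-5p was at -1.78 (edgeR adjusted p = 0.0492) and in mural ones at -1.04 (edgeR adjusted p = 0.199). let-7g-5p (-0.62) and let-7i-5p (-0.88) also pointed down, and let-7b-5p pointed up (0.91). These 4 relatives were described after earlier results of these data were known, and the differences between let-7e-5p and them were not tested.

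let-7e-5p made up 20.0% and 28.1% of the counted reads of the family (let-7a to let-7i and miR-98-5p, 9 names) in the polar WT libraries. The names let-7a-5p and let-7c-5p, at 0 counts throughout, add nothing to this sum, so it is a share of the counted names and may not be that of the family. The range in polar pieces was 10.4% to 15.2% in diapause and 3.33% to 6.52% under mTORi. These 3 polar groups did not overlap. In mural pieces it made up 41.6% and 44.2% in WT, 8.26% to 25.4% in diapause and 8.70% to 18.0% under mTORi, so both paused groups were below WT and overlapped each other. This share was added after the values were seen and is given with no test. The counts behind it were 30 to 131 per polar mTORi library and 25 and 64 in polar WT.

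**Figure D5:**
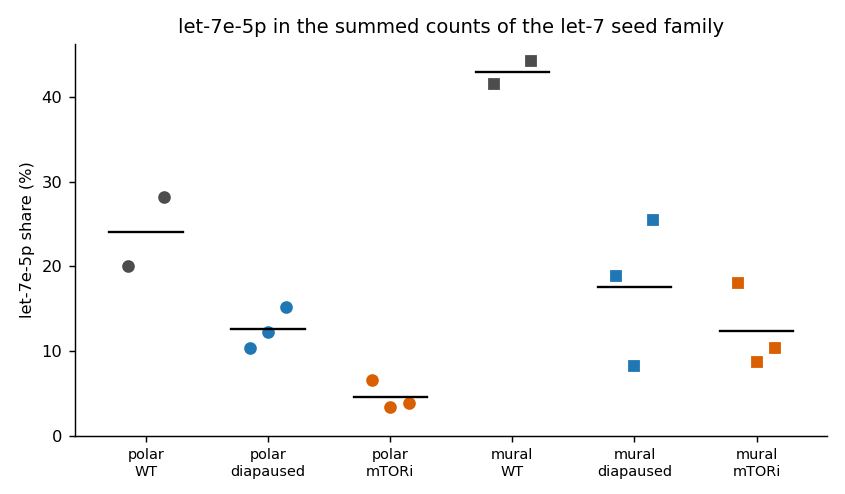
Share of let-7e-5p in the summed counts of the 9 names of the let-7 seed family, let-7a-5p and let-7c-5p being at 0 (percent, vertical axis from 0) per library, with group means as lines. Mural WT libraries lie at 41.6% and 44.2%, and polar mTORi ones at 3.33% to 6.52%.

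miR-10a-5p and miR-10b-5p, relatives of the miR-99 family with another seed, rose under mTORi, where miR-99b-5p fell. Averaged over the parts, miR-10b-5p rose by 2.56 against WT (SE 0.30, edgeR adjusted p = 1.04e-05) and miR-10a-5p by 2.39 (SE 0.61, edgeR adjusted p = 0.00984). All tested miRNAs were called at 32.4% there. miR-10a-5p had only 1 and 2 counts in polar WT, and 15 and 13 in mural WT. In diapause miR-10b-5p and miR-10a-5p rose by 1.58 (SE 0.28, edgeR adjusted p = 0.000685) and 2.26 (SE 0.60, edgeR adjusted p = 0.0122), where miR-99b-5p was at -0.25. All tested miRNAs were called at 18.6% there. Mural diapaused replicate 2 held 18748 CPM of miR-10a-5p, against 3816 and 3268 CPM in replicates 1 and 3. Within a part, miR-10a-5p was not called in diapause (edgeR adjusted p = 0.159 polar, 0.0524 mural) or in mural pieces under mTORi (0.098). miR-10b-5p was not called in mural pieces in diapause (edgeR adjusted p = 0.074). Their other comparisons with WT within a part were called.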

How the data were processed

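The authors deposited unnormalized counts for each mature miRNA name, one file per sample. Per the labels, adapters with molecular identifiers were ligated, and per the submitters' processing notes the build was GRCm38. Not given in the sources used here are the aligner, the mismatch rule and any collapsing of identifiers, so intervals cover counting error only. The 16 libraries were grouped by part and treatment from the labels. Names were kept by filterByExpr (minimum count 10, minimum total 15), which left 102 names with 92.8% to 97.6% of counts. edgeR 4.0.16 (R 4.3.3), quasi-likelihood with TMM factors, fitted 1 mean per group over all libraries (10 residual degrees of freedom, common dispersion 0.142). Benjamini-Hochberg adjustment ran over all tested names, and a name was called at an adjusted p under 0.05. Log2 CPM used a prior count of 2. Correlations used 100000 pairings for 16 libraries and every pairing for 8, and share tests were exact, permuting treatments within parts. Alternatives were RLE factors, library size alone, no filter, DESeq2 1.42.0, only the groups compared, a replicate block, and leaving out each library. Scripts were tested on simulated data. The members are named always, with their other arms, paralogous clusters, let-7 family, miR-10, and the 3 most alike names by r. Values are given for listed names with at least 30 counts. Members and lists were chosen with earlier results of these data known.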

Additional observations from a re-analysis of the deposited data

How the results depend on the processing

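With 1 to 10 counts of miR-99b-5p or let-7e-5p in most mTORi libraries, depth limits every comparison with that treatment; a library left alone in its group was assumed to vary like the other groups. The labels do not say whether same-numbered libraries share more than a number. Of the 8 same-numbered polar and mural pairs, 7 had a correlation of deviations over 0.1, the lowest being -0.01. Over all 22 same-numbered pairs, which include those across treatments, 10 were over 0.1 and 11 correlated best with their own number. The main fit treats all libraries as unpaired. The cause of each change below was not tested. With the replicate block, 1 member was called for mTORi minus WT in polar pieces (beside 24 of all 102 names) and 3 in mural ones (14 of 102). Library size alone gave 1 in polar (26 of 102), and DESeq2 3 (14 of 101) and only the groups compared 2 (22 of 65) in mural pieces. For mTORi minus diapaused, averaged, RLE factors, no filter and DESeq2 each gave 1 call (beside 27 of 102, 30 of 497 and 31 of 101 names) and only the groups compared 0 (25 of 92). let-7e-5p could not be tested for mTORi minus WT in polar pieces or for polar minus mural under mTORi with only the groups compared, since it failed the filter there. Calls ran from 0 to 0 (mTORi minus WT, mural), 0 to 2 (averaged) and 0 to 2 (mTORi minus diapaused, averaged) when each library was left out.

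Scaling moved the median difference of all tested names by -0.29 to 0.47, the latter for polar minus mural in diapause with library size alone. Directions that turned belong to values that were not called. With library size alone they were miR-125a-5p for mTORi minus diapaused in polar pieces (-0.10) and for polar minus mural averaged (0.14) and in diapause (0.27), and let-7e-5p for the last (0.025). With RLE factors they were miR-125a-5p for polar minus mural averaged (0.012; 0.0062 with DESeq2) and the interaction of let-7e-5p for mTORi (0.018). With no filter miR-99b-5p for polar minus mural under mTORi was -0.068. Leaving out each library gave, for let-7e-5p, -0.68 to 0.018 (diapaused minus WT, polar), -0.65 to 0.042 (polar minus mural, diapaused), -0.11 to 0.64 (interaction, diapause) and -0.54 to 0.41 (interaction, mTORi). For miR-125a-5p it gave -0.11 to 0.53 and -0.36 to 0.10 (diapaused minus WT, polar and averaged), -0.046 to 0.53 and -0.48 to 0.027 (mTORi minus diapaused, polar and averaged), and -0.44 to 0.44 and -0.28 to 0.14 (polar minus mural, diapaused and averaged). For miR-99b-5p under mTORi, polar minus mural, it gave -0.57 to 0.58.

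With library size alone r over all libraries was 0.61 for miR-99b-5p with let-7e-5p and 0.57 with miR-125a-5p, both past the threshold, and 0.35 for the latter in polar ones. Deviations from group means gave -0.056 for miR-99b-5p with let-7e-5p over all libraries, -0.56, 0.24 and 0.021 for the polar pairs and 0.94, 0.59 and 0.59 for the mural ones. The mural pairs were no longer past the threshold when permuted within groups, where a lone pair could not pass the adjustment. Leaving out each library gave 0.51 to 0.71 and 0.41 to 0.66 for the pairs with miR-99b-5p over all libraries, -0.22 to 0.15 for miR-99b-5p and miR-125a-5p in polar, and 0.80 to 0.90 and 0.81 to 0.92 for the pairs with miR-125a-5p in mural libraries. Shares of miR-99b-5p, let-7e-5p and miR-125a-5p from WT to diapause ran from -5.58 to 1.76, -4.51 to 0.25 and -2.01 to 10.1 points. Restricting shares to libraries with at least 10 counts of the 3 left none out, the lowest sum being 32.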
